A study of Mus musculus with 24 samples.

Results

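Lysozyme 1 (Lyz1) and 9 other genes, listed together as Paneth granule products, were followed through crypts of the mouse small intestine. The list also holds Nupr1, which encodes a nuclear protein, and where each product lies in the cell was not tested. The others were Mmp7, Ang4, Pla2g2a, Itln1, Mptx1, Mptx2, Habp2, Clps and Nupr1. They were taken by gene symbol, and 10 of 10 were found among the 55421 genes of the count table. Each gene was described over 24 libraries, made from 3 sorted fractions of 8 mice: stem, transit-amplifying (called TA) and Paneth.

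The 4 control mice carried 1 conditional Setd1a allele and 1 wild-type allele (Setd1aFC/+), and the 4 knockout mice carried that allele on both chromosomes (Setd1aFC/FC). They are called het and hom here. All 8 mice, controls included, carried Lgr5-eGFP-CreERT2 and received 1 mg tamoxifen on each of 3 days, and crypt cells were sorted 4 days after induction with antibodies to CD24, EpCAM and CD45. Ages are not given in the sources used here. Each mouse gave 1 library per fraction, so each of the 6 groups held 4 libraries. Values are listed in the order BN44, BO27, BO58, BP03 for het mice and BN45, BO25, BO57, BP04 for hom mice. Cre was driven from Lgr5, a gene active in crypt stem cells, and how complete the deletion was in each fraction was not measured.

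Paneth cells sit at the crypt base between the stem cells and release granules into the crypt lumen. The granules carry enzymes and peptides that act on bacteria, among them lysozyme, the alpha-defensins and secreted phospholipase, and the protease Mmp7 cuts mouse alpha-defensin precursors into their active form. The same cells supply Wnt and Notch ligands to neighbouring stem cells.

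Library totals ran from 24726282 to 47052856 counts. Levels are CPM, counts scaled to a common library size with TMM factors over all 24 libraries, which sets most genes to a common level. A level is therefore higher than the share of raw counts in 7 of the 8 Paneth libraries, and lower in that of BO58 (TMM factor 1.108). Setd1a itself stood at 3.99 to 7.08 CPM in het and 3.72 to 6.91 CPM in hom stem libraries, at 3.43 to 6.74 and 4.51 to 6.61 CPM in TA libraries, and at 6.35 to 15.1 and 4.86 to 7.31 CPM in Paneth libraries. These ranges overlapped, and the counts sum all exons of Setd1a, so they do not check the deletion. The fractions were checked against cell type markers. The 18 alpha-defensin genes in the table took 3.02% to 29.98% of counts in het and 12.4% to 42.1% in hom Paneth libraries, against at most 0.166% in stem and 0.364% in TA libraries. Paneth libraries also held markers of other cells: 10 enteroendocrine genes summed to 6382 to 11870 CPM and 8 tuft cell genes to 1773 to 3782 CPM, with all 18 detected. The 7 goblet cell genes, including the mucin gene Muc2, summed to 1202 to 17500 CPM in Paneth, 5409 to 15920 CPM in TA and 115.6 to 1101 CPM in stem libraries.

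Sequence is shown for the members whose counts the results turn on: Lyz1, the most abundant one in Paneth libraries; Mmp7, which was higher in TA than in stem libraries of het mice; and the pentraxin pair Mptx1 and Mptx2, whose transcripts are near copies. The 250 bases before the transcription start are from RefSeq on GRCm38.p6, 5′ to 3′ on the gene's strand. Capitals mark TATAAA in Mmp7 and, in the pentraxin pair, the longest stretch both share.
Lyz1, chr10:117292869-117293118, minus strand: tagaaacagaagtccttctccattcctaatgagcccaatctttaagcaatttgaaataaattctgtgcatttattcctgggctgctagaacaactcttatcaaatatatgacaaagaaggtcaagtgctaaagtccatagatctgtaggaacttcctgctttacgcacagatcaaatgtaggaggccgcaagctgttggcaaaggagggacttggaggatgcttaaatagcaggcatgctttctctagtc
Mmp7, chr9:7691840-7692089, plus strand: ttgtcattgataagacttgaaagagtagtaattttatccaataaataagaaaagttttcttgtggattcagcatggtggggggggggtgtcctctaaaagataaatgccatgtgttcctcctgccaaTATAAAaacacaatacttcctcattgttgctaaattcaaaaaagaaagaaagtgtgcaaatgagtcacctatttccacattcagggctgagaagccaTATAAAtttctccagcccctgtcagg
Mptx1, chr1:174330268-174330517, plus strand: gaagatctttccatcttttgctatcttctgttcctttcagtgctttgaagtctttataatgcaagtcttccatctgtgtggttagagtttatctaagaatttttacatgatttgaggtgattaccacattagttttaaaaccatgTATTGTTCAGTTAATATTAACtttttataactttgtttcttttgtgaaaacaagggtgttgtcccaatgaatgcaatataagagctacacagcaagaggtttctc
Mptx2, chr1:173277757-173278006, minus strand: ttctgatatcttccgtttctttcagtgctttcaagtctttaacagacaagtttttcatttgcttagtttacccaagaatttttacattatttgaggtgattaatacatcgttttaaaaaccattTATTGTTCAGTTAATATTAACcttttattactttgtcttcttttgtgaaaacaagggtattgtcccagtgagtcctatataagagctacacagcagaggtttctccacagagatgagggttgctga
TATAAA began 123 and 26 bases before the start of Mmp7 and was not in the Lyz1 window on the strand shown. The Mptx1 and Mptx2 windows shared a run of 21 bases and were identical at 202 of 227 aligned bases (89.0%).

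RefSeq windows of 300 bases, from 250 before to 50 after the start, were matched for 8 of the 10 members, with 2 windows for Mmp7. Clps and Pla2g2a had none. On either strand, TATAAA was in windows of 2 members (Mmp7 and Mptx1) and in 13.6% of all 32851 windows, and CTTTGA, the TCF/LEF core, in the same 2 members and 16.0% of windows. ACAATG, a SOX core, was in windows of Mmp7 and Mptx2 and in 12.6% of all windows, and the E-box CAGCTG in those of Lyz1 and Nupr1 and in 16.3%. No motif was in more than 2 of the 8 members. A match describes these letters only, and nothing follows about a factor from their presence or absence.

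The members lie on 8 chromosomes (GRCm38 coordinates from the count table's exons). Lyz1 spans chr10:117287797-117292868 on the minus strand, 5475 bases from its neighbour Lyz2, with which its longest transcript is identical at 1211 of 1262 aligned bases (95.96%). Mptx1 (chr1:174330518-174332873) and Mptx2 (chr1:173274382-173277777) are 1052740 bases apart and identical at 734 of 794 aligned transcript bases (92.4%). Of the 50-base windows in Lyz1 transcripts, 16.1% also occur in Lyz2, and 17.9% of those in Mptx1 occur in Mptx2. Of those in Ang4, 31 (4.7%) occur in other genes, 30 of them in Ang5. Counts in such windows cannot be assigned to 1 gene of a pair with certainty. Mmp7 (chr9:7692090-7699585) shares 123 exon bases with the antisense gene AV064505 and Habp2 (chr19:56287137-56320822) shares 268 with the antisense gene Nrap, and counting ignored strand. Pla2g2a (chr4:138831857-138835186) is annotated as a polymorphic pseudogene in the reference.

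**Figure D1:**
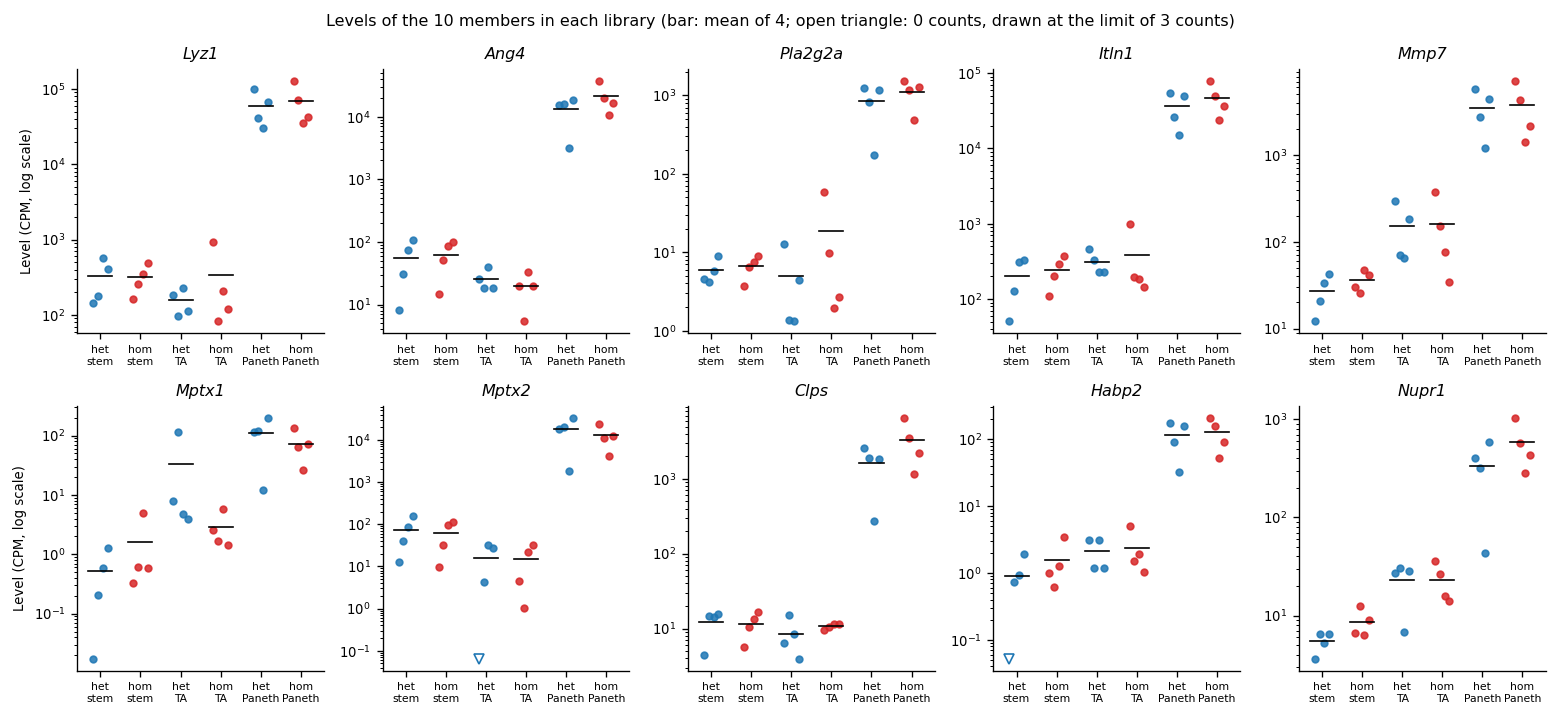
Level of each member in each of 24 libraries (CPM, log scale), by genotype and fraction: 1 point per mouse in the order of the text, the bar is the mean of 4, and an open triangle is a library with 0 counts, drawn at the limit of 3 counts. The Paneth libraries lie above all stem libraries in each panel; Mptx1 in the het TA library of BO27 (116.8 CPM) lies among the Paneth libraries.

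Lyz1 led the members in Paneth libraries. This enzyme, which cleaves bacterial peptidoglycan, stood at 98130, 41507, 30179 and 66029 CPM in het and at 127810, 70844, 35552 and 42262 CPM in hom Paneth libraries. In stem libraries it stood at 145, 180, 563 and 413 CPM in het and 163, 262, 348 and 487 CPM in hom, and in TA libraries at 182, 97.8, 231 and 113 CPM in het and 935, 82.2, 209 and 121 CPM in hom. Every Paneth library lay above every stem and TA library, while stem and TA libraries overlapped. Lyz1 was between the rank of 2 and 4 among all genes in each Paneth library. Against stem libraries it was higher in Paneth libraries by log2 7.54 (SE 0.71) in het and 7.86 (SE 0.64) in hom, and against TA libraries by 8.59 (SE 0.65) and 7.73 (SE 1.02), all past the edgeR threshold of an adjusted p of 0.05 (largest adjusted p = 0.00072). In bulk libraries fewer cells of a type and less RNA per cell cannot be told apart, so these are levels of a fraction. The p-values measure the spread between libraries within a group. In the main fits, libraries of 1 mouse from different fractions were not paired, and the animal as replicate block was an alternative.

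Ang4, a microbicidal member of the ribonuclease family, stood at 13282 ± 6836 CPM (SD, n = 4) in het and 21049 ± 11530 CPM in hom Paneth libraries. It stood at 8.04 to 106 CPM in stem and 5.38 to 40.0 CPM in TA libraries. Its step from TA to Paneth libraries was log2 9.03 (SE 0.70) in het and 10.13 (SE 0.80) in hom. Pla2g2a, a secreted phospholipase that breaks down bacterial membranes, stood at 1244, 819, 171 and 1176 CPM in het and 1531, 1179, 491.5 and 1273 CPM in hom Paneth libraries, against 3.70 to 9.07 CPM in stem libraries. Its TA values were spread: 12.8, 1.36, 1.31 and 4.39 CPM in het and 59.3, 9.70, 1.92 and 2.69 CPM in hom, with BN44 and BN45 highest in their groups. Its own TA range thus spanned the stem range on both sides.

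Among the lectins and pentraxins, Itln1, which binds microbial glycans, stood at 55122, 26518, 15197 and 50133 CPM in het and 79132, 49652, 23720 and 37161 CPM in hom Paneth libraries. In TA libraries it stood at 463, 326, 229 and 228 CPM in het and 1007, 196, 185 and 146 CPM in hom, and in stem libraries at 50.6 to 372 CPM. Its TA and stem ranges overlapped (stem against TA, log2 -0.62 in het, adjusted p = 0.565, and -0.66 in hom, adjusted p = 0.657, by edgeR). Mptx2, a mucosal pentraxin, stood at 18590, 20610, 1802 and 33054 CPM in het and 23943, 10975, 4200 and 12160 CPM in hom Paneth libraries. In TA libraries it stood at 0, 4.31, 32.7 and 27.5 CPM in het and 4.51, 1.03, 21.9 and 32.0 CPM in hom. The het TA library of BN44 held 0 counts of Mptx2, which allows up to 0.06505 CPM (3 counts, counting error only). Its largest step was from TA to Paneth libraries, log2 10.18 (SE 1.83) in het and 9.82 (SE 1.25) in hom.

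Relative to its paralog Mptx2, Mptx1 was higher in all 8 TA libraries than in any Paneth library. Mptx1 stood at 114, 120, 11.9 and 198 CPM in het and 133, 63.3, 26.0 and 71.8 CPM in hom Paneth libraries, and at 0.0175, 0.207, 0.580 and 1.27 CPM in het and 0.332, 0.615, 4.89 and 0.580 CPM in hom stem libraries. In TA libraries it stood at 7.81, 117, 4.75 and 3.87 CPM in het and 2.56, 1.65, 5.89 and 1.42 CPM in hom. The TA library of BO27 was as high as Paneth libraries, and the other 3 het TA libraries lay above all het stem libraries. Mptx1 was the member not called between Paneth and TA libraries in het mice (log2 1.75, SE 1.12, adjusted p = 0.263 by edgeR), and without BO27 it was called (log2 4.33, adjusted p = 0.0125). In hom mice that step was log2 4.73 (SE 0.63, adjusted p = 0.00076).

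Counted per 100 Mptx2 counts, Mptx1 held between 0.554 and 0.663 in the 8 Paneth libraries, a spread of 1.2-fold. In het stem libraries it ranged from 0.135, which rests on 1 Mptx1 count, to 0.819, in hom stem libraries from 0.511 to 5.20, and in the 7 TA libraries with Mptx2 counts from 4.425 to 2711. The pair therefore kept 1 ratio across Paneth libraries that differed in Mptx2 by counts of 49351 to 739334. In the TA library of BO27 the order turned over, with 3605 counts of Mptx1 against 133 of Mptx2, and in that of BN44 360 counts stood against 0. The 4 hom TA libraries held 97, 56, 187 and 50 Mptx1 counts against 171, 35, 696 and 1130 of Mptx2. Whether reads of the shared transcript stretches set the low constant ratio in Paneth libraries was not tested.

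**Figure D2:**
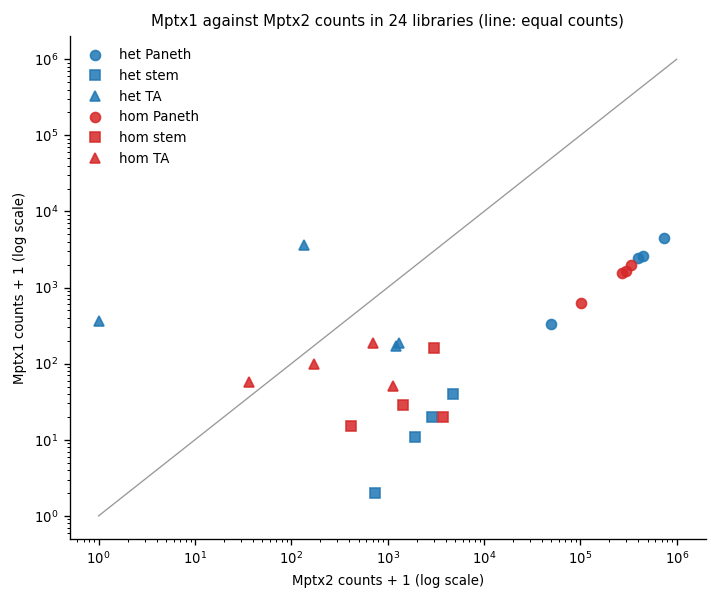
Counts of Mptx1 against Mptx2 in 24 libraries (1 added to each count, log scales; circles are Paneth, squares stem and triangles TA libraries, blue het and red hom; the line marks equal counts). The 8 Paneth libraries lie on 1 line at 0.554 to 0.663 Mptx1 counts per 100 of Mptx2, and the TA libraries lie above it.

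Mmp7, the protease that activates alpha-defensins, stood at 5734, 2751, 1209 and 4394 CPM in het and 7145, 4313, 1419 and 2182 CPM in hom Paneth libraries. It stood at 291, 71.3, 65.0 and 183 CPM in het and 378, 150, 76.2 and 34.2 CPM in hom TA libraries, and at 12.1, 20.7, 33.3 and 42.6 CPM in het and 29.9, 25.7, 47.4 and 41.9 CPM in hom stem libraries. All het TA libraries lay above all het stem libraries, whereas the hom TA library of BP04 lay within the hom stem range. The step from TA to Paneth libraries, log2 4.55 (SE 0.65) in het and 4.62 (SE 0.83) in hom, stood beside one from stem to Paneth libraries of log2 7.06 (SE 0.64) and 6.78 (SE 0.60).

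The remaining members are a lipase cofactor, a protease and a nuclear protein. Clps, colipase, stood at 2580, 1892, 274 and 1844 CPM in het and 6499, 3472, 1151 and 2215 CPM in hom Paneth libraries, against 4.49 to 16.4 CPM in stem and 3.96 to 15.1 CPM in TA libraries. Of 6 pancreatic acinar genes, which could mark pancreas in the tissue, the sum was at most 26.1 CPM in any Paneth library, with Cela2a and Pnlip at 0 in the het ones and Prss1, Cela2a and Ctrb1 at 0 in the hom ones. Habp2, a serine protease that binds hyaluronan, stood at 32.5 to 176 CPM in het and 53.2 to 207 CPM in hom Paneth libraries, and at no more than 4.99 CPM elsewhere. Nupr1, a small stress-induced nuclear protein, stood at 401, 319, 43.8 and 588 CPM in het and 1032, 577, 287 and 431 CPM in hom Paneth libraries. Its TA libraries held 27.4, 30.6, 6.80 and 28.4 CPM in het and 35.6, 26.7, 15.9 and 14.0 CPM in hom, while stem libraries held 3.64 to 6.56 CPM in het and 6.27 to 12.5 CPM in hom. With TMM scaling all TA libraries lay above all stem libraries in each genotype. With library totals the het ranges overlapped, at 7.675 CPM in TA of BO58 and 7.845 CPM in stem of BO27. In hom the lowest TA value (15.07 CPM, BP04) then stood close to the highest stem value (14.94 CPM, BO25).

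Per kilobase of counted exon, which allows genes to be compared, the order in het Paneth libraries was Lyz1 (46684 ± 23828 CPM per kb, SD, n = 4), Itln1 (32202 ± 16674), Mptx2 (23317 ± 16180), Ang4 (18734 ± 9642), Mmp7 (3298 ± 1841), Clps (2696 ± 1596), Pla2g2a (919 ± 529), Mptx1 (139 ± 95.4), Nupr1 (134 ± 90.0) and Habp2 (35.7 ± 20.5). Each neighbour overlapped with the next over the 4 libraries. In hom Paneth libraries Ang4 (29688 ± 16262) stood before Mptx2 (16146 ± 10332), Clps (5457 ± 3786) before Mmp7 (3525 ± 2402) and Nupr1 (231 ± 128) before Mptx1 (91.9 ± 55.3), and the ranges of Pla2g2a (1206 ± 478) and Nupr1 did not overlap. In stem libraries of both genotypes Lyz1, at 258 ± 157 in het and 249 ± 109 in hom, again led Itln1. In TA libraries Itln1 led instead (273 ± 96.9 in het and 336 ± 365 in hom), with Mmp7 (143 ± 100) before Lyz1 (123 ± 49.2) in het. The neighbours Lyz1 and Itln1 overlapped in stem and Paneth libraries, as did Itln1 and Mmp7 in het TA libraries.

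Together the members took 5.78% to 13.1% of all counts in het and 7.38% to 12.8% in hom Paneth libraries, and 2 or 3 of them were among the 10 most abundant genes of each. They took 0.0294% to 0.127% in stem libraries and 0.0414% to 0.121% in TA libraries other than the hom TA library of BN45, which held 0.288%. Among Paneth libraries single ones were the extreme of their group for all members. The het Paneth library of BO58 was the lowest of its group for 10 of 10 members, and the hom Paneth library of BN45 was the highest and that of BO57 the lowest of theirs for 10 of 10. With library totals in place of TMM, BO58 was still lowest for 10, BN45 highest for 6 and BO57 lowest for 9. In BO58 the 10 most abundant genes took 18.75% of counts and in BN45 57.2%, the extremes of the Paneth libraries. Other gene sums moved with these libraries. Goblet cell genes summed to 1202 CPM in BO58 and 17500 CPM in BN45, the lowest and the highest Paneth libraries. The alpha-defensins, which are Paneth cell products, took 3.02% and 42.1% of counts there, also the lowest and the highest. Enteroendocrine genes ran the other way, at 10330 CPM in BO58, the highest het value, and 6382 CPM in BN45, the lowest hom value. Their part in these levels was not tested. In TA libraries no library was the extreme for all members: BN45 was highest of the hom group for 6 and lowest for 1, and no het library was highest for more than 4. Stem libraries had another order: BN44 was lowest of the het group for 9 members and BN45 lowest of the hom group for 7.

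Between Paneth and stem libraries, all 10 members were higher in Paneth libraries in het mice (10 of 10 called, with 17.3% of all 16230 genes called higher) and in hom mice (10 of 10, with 17.4% of genes). The log2 fold changes ran from 5.99 (Nupr1) to 8.002 (Mptx2) in het, median 7.38 against 0.05 over all genes, and from 5.62 (Mptx1) to 8.47 (Ang4) in hom, median 7.56 against 0.06. Against TA libraries, 9 of 10 were higher in het (17.4% of genes called higher), with a median of 7.17 against 0.08 over all genes, and 10 of 10 in hom (16.3%), with a median of 6.47 against 0.08. The 10 members stayed called against stem libraries without any 1 mouse, with the animal as replicate block and by DESeq2. With library totals the median of all genes was -0.47 and -0.41 in het and -0.57 and -0.58 in hom, and that of the members 6.74 and 6.54, and 6.77 and 5.64.

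**Figure D3:**
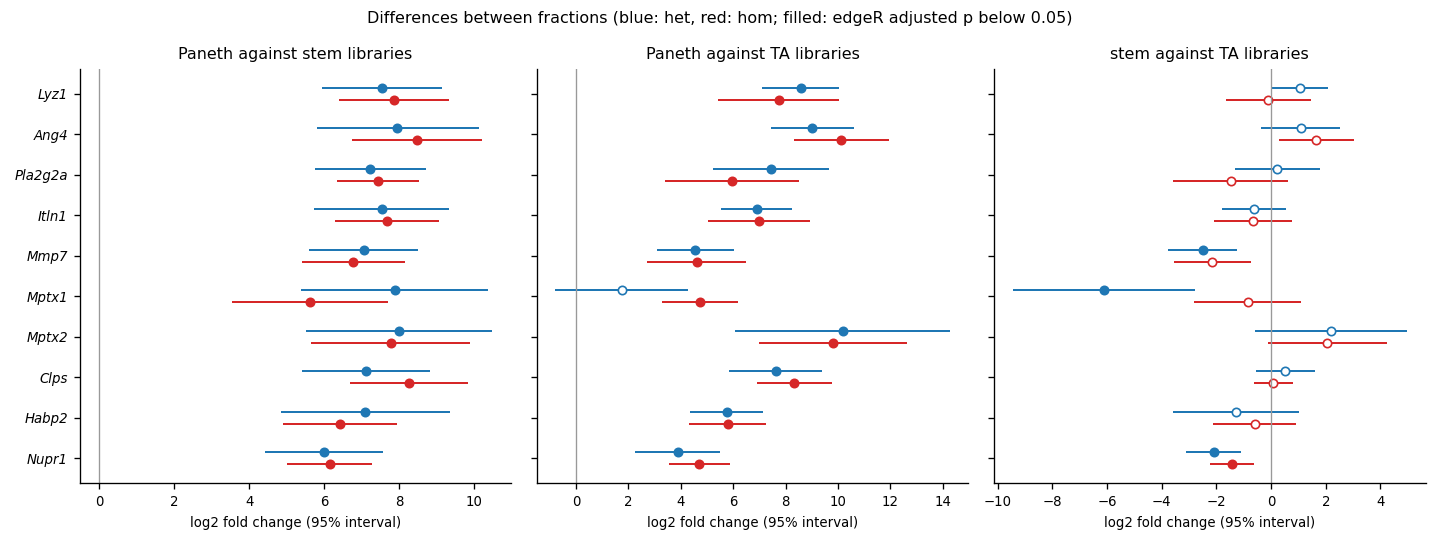
Log2 fold change of each member between fractions, with its 95% interval, in het (blue) and hom (red) mice; filled points have an edgeR adjusted p below 0.05. All members lie above 5 between Paneth and stem libraries, and Mptx1 in het mice is the open point between Paneth and TA libraries.

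Between stem and TA libraries the members split. In het mice 3 of 10 were lower in stem libraries, with 3.57% of 16182 genes called lower: Mmp7 (log2 -2.50, SE 0.55, adjusted p = 0.0274 by edgeR), Nupr1 (-2.10, SE 0.43, adjusted p = 0.0205) and Mptx1 (-6.12, SE 1.47, adjusted p = 0.0386). By edgeR 0 of 10 were called higher (2.69% of genes), and DESeq2 called 0 higher and 2 lower of the 9 it gave a value, Mmp7 and Nupr1, with none for Mptx1. Mptx2 (log2 2.199), Ang4 (1.09) and Lyz1 (1.06) had positive values, of which 1, that of Lyz1, had an unadjusted edgeR p under 0.05 (0.0387). In hom mice Nupr1 was lower (-1.43, SE 0.35, adjusted p = 0.0491 by edgeR; 2.58% of 15954 genes called lower), and Mmp7 stood at -2.15 (SE 0.61, adjusted p = 0.0833). There 0 of 10 members were higher by edgeR (2.03% of genes), with 1, Ang4, at an unadjusted edgeR p under 0.05 (0.0202), and DESeq2 called 1 higher, Ang4 (log2 1.67, adjusted p = 0.0321), and 2 lower. With the replicate block of the animal, which pairs fractions of 1 mouse, the het calls of Mmp7 (log2 -2.29, adjusted p = 0.0553 by edgeR) and Mptx1 (-4.92, adjusted p = 0.076) ended and that of Nupr1 stayed. Without BN44, BO27 or BP03 none of the 3 was called, and without BO58 Nupr1 alone was. Over all genes there were 1013 het calls, 249 to 801 without 1 mouse, 1848 with the block and 2231 by DESeq2. In hom mice Nupr1 was not called without any 1 of the 4 mice, nor with library totals. There the calls over all genes were 736, 184 to 417 without 1 mouse, 1427 with the block and 1945 by DESeq2.

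Ratios to Lyz1 within a library, which need no scaling between libraries, differed between members. Lyz1, the denominator, was itself higher in Paneth than in TA libraries by log2 8.59 in het and 7.73 in hom, against a median of 0.08 over all genes in each. A gene with a smaller step than Lyz1 thus has a higher ratio in TA libraries. The share of all genes that do so was not computed. Mmp7 stood at 3.99 to 6.66 counts per 100 Lyz1 counts in the 8 Paneth libraries, at 28.1 to 183 in TA libraries and at 5.92 to 18.3 in stem libraries. All 8 TA libraries lay above all Paneth libraries for Mmp7, Nupr1 (medians of 13.3 against 0.8075), Itln1 (161 against 65.3) and Habp2 (1.14 against 0.199), and 7 of 8 did for Mptx1 (2.44 against 0.110). For Ang4 (16.2 against 28.6) and Mptx2 (7.46 against 18.8) the TA median was lower, with 2 and 4 of 8 TA libraries below all Paneth libraries. For Pla2g2a (3.05 against 1.52) and Clps (4.64 against 3.90) 4 of 8 TA libraries lay above all Paneth libraries. Stem libraries lay close to Paneth libraries for Itln1 (73.4), Mptx2 (18.9) and Clps (3.62), while Mmp7 (10.1) and Nupr1 (2.17) were above all Paneth libraries in 7 of 8 stem libraries. The goblet cell markers summed to more in TA than in stem libraries without overlap (5409 to 15920 against 115.6 to 1101 CPM), and Muc2 stood at 420 to 1815 CPM in TA and 0.0712 to 43.5 CPM in stem libraries. Their part in these ratios was not tested.

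**Figure D4:**
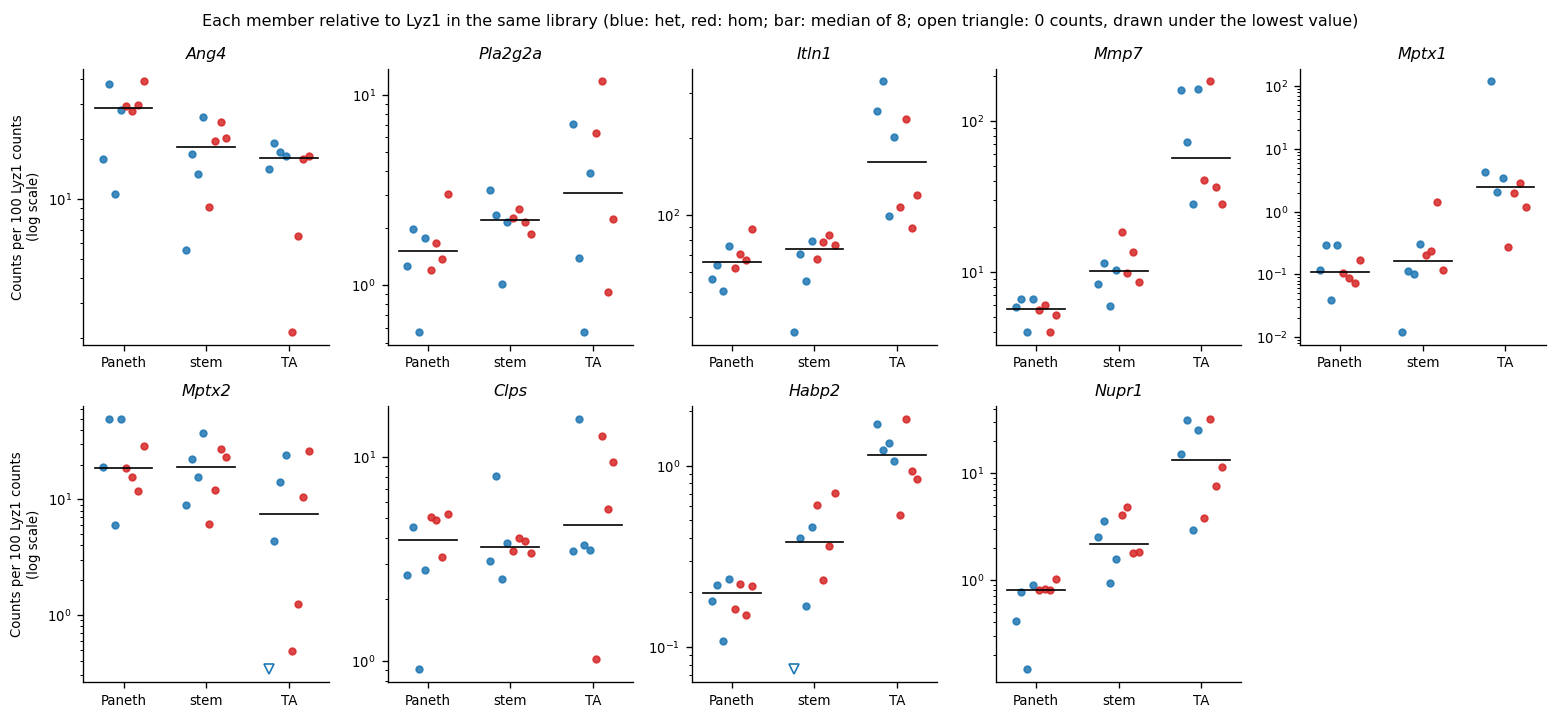
Counts of each other member per 100 Lyz1 counts in the same library (log scale), by fraction, with het in blue, hom in red and the median of 8 libraries as a bar; an open triangle is 0 counts. For Mmp7, Nupr1, Itln1 and Habp2 all 8 TA libraries lie above all 8 Paneth libraries. Lyz1, the denominator, is itself far lower in TA than in Paneth libraries.

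Setd1a genotype was compared within each fraction, 4 hom against 4 het libraries. In Paneth libraries 0 of 10 members were called (0% of 16108 genes), and none had an unadjusted edgeR p under 0.05. DESeq2 called 0 of the 10 as well, and 27 genes in all. The log2 fold changes of hom against het were 0.24 (95% interval -1.03 to 1.504) for Lyz1, 0.11 (-1.16 to 1.37) for Mmp7, 0.68 (-0.58 to 1.93) for Ang4, 0.39 (-0.79 to 1.57) for Pla2g2a and 0.37 (-0.83 to 1.58) for Itln1. They were -0.58 (-2.06 to 0.89) for Mptx1, -0.51 (-2.14 to 1.11) for Mptx2, 0.17 (-0.99 to 1.32) for Habp2, 1.03 (-0.41 to 2.47) for Clps and 0.80 (-0.58 to 2.17) for Nupr1, each with an adjusted p of 1. The hom and het ranges overlapped for all 10. The share of all genes whose ranges overlap was not computed, so this count shows nothing particular to the members. Each of the 10 intervals reached past a 2-fold difference in at least 1 direction. The median of the members was 0.30 against 0.00 over all genes, with 8 of 10 positive. Without BN45 it was -0.13 with 4 of 10 positive, and with library totals, where the median of all genes was -0.17, it was 0.07 with 5 of 10 positive.

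In stem libraries 0 of 10 members were called (0.0125% of 16056 genes), with none at an unadjusted edgeR p under 0.05 and 0 by DESeq2. DESeq2 called 277 genes in all there. The largest value was that of Mptx1 (log2 1.63, SE 1.18), which without BO57 was -0.02. Lyz1 stood at 315 ± 137 CPM in hom and 325 ± 198 CPM in het (log2 -0.06, SE 0.45), and Nupr1 at 8.57 ± 2.88 and 5.46 ± 1.36 CPM (0.65, SE 0.31, unadjusted p = 0.0632, adjusted p = 0.773 by edgeR). Median log2 fold change was 0.22 for the members against 0.00 for all genes, with 7 of 10 positive. It ran from -0.0065 (without BP04, 5 of 10 positive) to 0.63 (without BP03, 10 of 10 positive).

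In TA libraries 0 of 10 members were called (0% of 15925 genes). DESeq2 called 0 of the 8 it gave a value, and 121 genes in all. Mptx1 was the 1 member with an unadjusted edgeR p under 0.05. It stood at 2.88 ± 2.07 CPM in hom and 33.3 ± 55.7 CPM in het (log2 -3.53, SE 1.14, unadjusted p = 0.01145, adjusted p = 0.695 by edgeR). BO27 held most of the het level, and without 1 mouse at a time the difference ran from -4.14 to -0.91. Lyz1 (log2 1.12, SE 0.68) and Pla2g2a (1.90, SE 1.10) had positive values that rested on BN45: without it they were -0.18 and -0.04. Itln1 went from 0.31 to -0.82 without that mouse. Alpha-defensins, which Mmp7 processes, summed to 3111 CPM in the hom TA library of BN45 against 383.6 to 878.7 CPM in the other 7 TA libraries, and their part in these values was not tested.

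Differences of the genotype effect between fractions were tested as interactions over all 24 libraries. None of the 10 members was called for Paneth against stem (0% of genes), Paneth against TA (0.00516%) or stem against TA libraries (0%). Mptx1, between stem and TA libraries, was the 1 member at an unadjusted edgeR p under 0.05 (log2 5.25, SE 1.63, unadjusted p = 0.00389, adjusted p = 1), and 0 members were called by DESeq2 in any of the 3. Without BO27 this Mptx1 value was 2.36, and without any other mouse 4.23 (BO57) to 6.60 (BP03). By DESeq2, 59, 31 and 19 genes were called in all for the 3 interactions, in the order above.

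**Figure D5:**
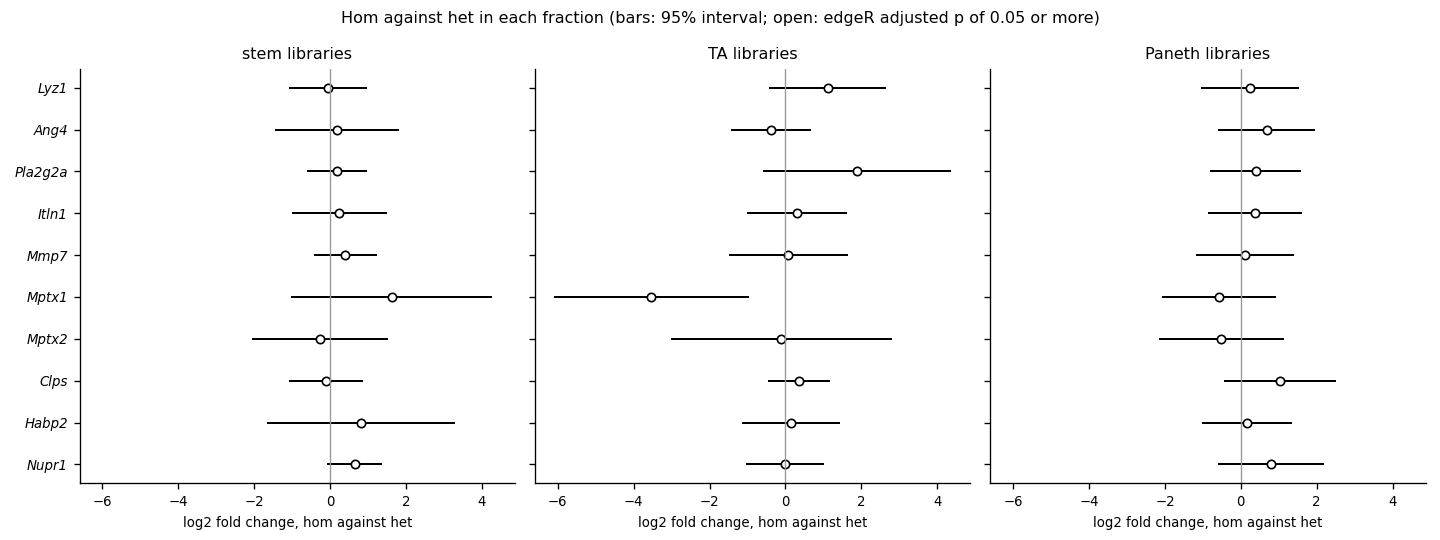
Log2 fold change of hom against het libraries for each member in each fraction, with its 95% interval; all points are open, since no edgeR adjusted p was below 0.05. Intervals cross 0 for every member except Mptx1 in TA libraries.

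Over the 8 Paneth libraries, each from another mouse, log2(CPM + 1) of Lyz1 was compared with the 9 other members (Pearson r, Spearman rho, exact two-sided permutation p, adjusted over all 10551 genes at a mean of 5 CPM). Mmp7 had r = 0.966 (exact permutation p = 0.000595, adjusted p = 0.0895) and rho = 0.952 (exact permutation p = 0.00114). Itln1 had r = 0.947 (exact permutation p = 0.000595, adjusted p = 0.0895) and rho = 0.976 (exact permutation p = 0.000397). Habp2 had r = 0.92 (exact permutation p = 0.00161, adjusted p = 0.123) and rho = 1 (exact permutation p = 4.96e-05, the smallest a two-sided rank test over 8 libraries can give). The other r ran from 0.693 (Mptx1) to 0.818 (Clps). After adjustment 0 of 10551 genes passed, and the median r over all of them was -0.153. The smallest exact permutation p was 2.48e-05, at which 1 gene alone cannot pass this adjustment. The count of 0 therefore decides nothing about these correlations. Leaving out BN44 and BN45, the libraries farthest from the Lyz1 median, r was 0.962 for Mmp7, 0.941 for Itln1 and 0.952 for Habp2. The points share 1 scaling factor per library: with library totals r was 0.912 for Mmp7, 0.829 for Itln1, 0.801 for Habp2 and 0.43 for Ang4, and the median over all genes -0.571. Each genotype alone has 4 libraries, too few for a correlation.

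By the same measure over all 24 libraries, the genes outside the members most like Lyz1 were Lyz2 (r = 0.993) and the alpha-defensins Defa5 (0.991), Defa3 (0.99), Defa26 (0.988) and Defa35 (0.987). Over the 8 Paneth libraries they were the protein disulfide isomerase gene P4hb (r = 0.977), the lysosomal membrane gene Lamp2 (0.977), Lyz2 (0.973), Defa37 (0.967) and Imp3 (0.964). Lyz2, the near copy of Lyz1, held 0.139 to 0.196 counts per 100 Lyz1 counts in Paneth libraries, and how many of them are reads of Lyz1 was not tested. These values describe likeness over these libraries, and over 24 libraries most of the spread lies between fractions.

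Relatives of the members were mostly low. Of 31 genes listed as members of the same families, 28 were in the table and 12 reached a mean of 5 CPM in a group. Between Paneth and stem libraries 9 of 17 tested were higher in het (17.3% of all genes) and 10 of 20 in hom (17.4%), and between Paneth and TA libraries 10 of 15 (17.4%) and 11 of 19 (16.3%). Against stem libraries Ang5, next of kin to Ang4, was among them (log2 8.75 in het and 8.59 in hom). So, against the same libraries, were Ang6 (7.03 and 8.25), Pla2g2f (5.79 and 7.18), Pla2g2d (5.19 and 4.45) and Pnliprp2 (5.53 and 6.06). Also against stem libraries, Lyz2 (6.28 and 6.75) and Ang (1.64 and 2.17) were called. Pla2g10 was called against stem libraries in het mice (3.10, adjusted p = 0.0119, and 2.51, adjusted p = 0.12 in hom, by edgeR). Its mean was higher in TA libraries (10.9 CPM in het and 11.3 CPM in hom) than in Paneth libraries (6.73 and 6.96 CPM), with overlapping ranges. Ang4 and Ang5 share transcript stretches, and how many Ang5 counts are reads of Ang4 was not tested. Pnliprp2, a pancreatic lipase relative, stood at 533 ± 174 CPM in het and 821 ± 405 CPM in hom Paneth libraries. Pnliprp1 had means of 4.68 CPM in het and 9.15 CPM in hom Paneth libraries, 3.94 and 3.07 CPM in stem libraries, and 0.629 and 0.344 CPM in TA libraries. Against stem libraries it was not called (0.28, adjusted p = 0.755, and 1.63, adjusted p = 0.107, by edgeR). Neither was Pla2g12a against stem libraries (log2 0.47, adjusted p = 0.18 in het, and 0.45, adjusted p = 0.179 in hom, by edgeR). Of the relatives of Mmp7, Mmp14 was not called against stem libraries in either genotype (0.26, adjusted p = 0.603, and 0.79, adjusted p = 0.312, by edgeR). Against the same libraries Mmp15 was called in hom (1.26, adjusted p = 0.0241) and not in het mice (0.90, adjusted p = 0.0874, by edgeR). The interaction of genotype with these fractions was not called for Mmp15 (log2 0.36, SE 0.48, adjusted p = 0.969 by edgeR) or Pla2g10 (log2 -0.61, SE 1.204, adjusted p = 0.99 by edgeR).

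The alpha-defensins, the substrates of Mmp7, were higher in Paneth libraries for 17 of 17 tested genes against stem and against TA libraries in both genotypes, with medians of 9.30 and 11.03 in het and 10.25 and 9.53 in hom. Of 21 genes of Paneth lineage and niche, 13 of 20 tested were higher than in stem libraries in het (17.3% of all genes) and 13 of 20 in hom (17.4%). Among them were the ligand gene Wnt3 (log2 5.06 in het), the Notch ligand gene Dll4 (2.68 in het), and the secretory lineage factors Spdef (3.93 and 5.20) and Atoh1 (3.05 in hom). Of 28 genes of secretion and autophagy, 11 of 27 tested were higher and 1 lower in het (17.3% and 11% of all genes), and 13 and 3 of 26 in hom (17.4% and 13.2%), with the vesicle release genes Syt7 (6.34 and 6.57) and Rab3d (2.30 and 2.80) among the higher ones. Against TA libraries the secretion list was mixed: DESeq2 called 7 higher and 4 lower of 27 in het, and 8 and 7 of 28 in hom. For the lineage list it called 11 higher and 0 lower of 20 in het, and 11 and 2 of 20 in hom. DESeq2 called 7167 of all 21593 genes there in het, in either direction. By edgeR 17.4% of genes were higher and 11.8% lower in het, and 16.3% and 12.2% in hom. Between genotypes 0 genes of these 3 lists were called in any fraction by edgeR, and 0 by DESeq2. At an unadjusted edgeR p under 0.05 there were 6 of 13 alpha-defensins, 1 of 19 lineage genes and 2 of 26 secretion genes in TA libraries, against 5.92% of all 15925 genes, and 0 in the other fractions. Without BN45, whose TA library stood apart in alpha-defensins, there were 0 of 13 alpha-defensins, and their median log2 fold change was 0.50 in place of 2.26. The 5.92% belongs to the fit with all 8 libraries. The drop to 0 was not set against all genes in the smaller fit.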

How the data were processed

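RNA of sorted crypt fractions was sequenced after template-switching amplification (17 cycles), per the labels' protocols. The authors deposited a table of read counts per gene, made with featureCounts 2.0.1 without strand (option 0, minimum mapping quality 1) on mm10 and Ensembl release 98, per the file headers and the submitters' processing notes. The sources used here do not name the aligner. The 92 spike-in rows stayed out of library sizes and tests. Of 55421 gene IDs, 55154 matched a symbol.

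Genes were tested with edgeR 4.0.16 (quasi-likelihood F test, TMM, filterByExpr, Benjamini-Hochberg adjustment over all genes tested, threshold 0.05), hom against het within a fraction, fraction against fraction within a genotype, and as interactions over 24 libraries. Fits were tested on simulated data. Alternatives were DESeq2 1.42.0, library totals, no filter, a mean of at least 5 CPM, the animal as replicate block, and each mouse left out. Fractions of 1 mouse share an animal, per the library titles; no label pairs het with hom mice. Correlations used log2(CPM + 1). Tables were made in R 4.3.3 and Python 3.11.15, correlations with scipy 1.17.1, alignments with Biopython 1.88 and plots with matplotlib 3.10.9. Genes named outside the members came from rules on the smallest p within a list, a mean of 5 CPM within the families, and the 5 highest correlations with Lyz1. Members and lists were chosen with earlier results of these data known.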

Additional observations from a re-analysis of the deposited data

Results flagged for a closer look

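In 7 of the 60 sets of 4 libraries (10 members in 6 groups) 1 library lay far from the other 3, with a gap of more than 0.829 of the whole range. For normal and independent values chance gives about 1 in 20 sets. These CPM were not log-transformed and the members share libraries, so the 7 cannot be set against that rate. The hom TA library of BN45 was high for Lyz1 (935.2 CPM), Pla2g2a (59.28 CPM) and Itln1 (1007 CPM). Mptx1 was high in the het TA library of BO27 (116.8 CPM) and in the hom stem library of BO57 (4.886 CPM). Clps was low in the het stem library of BN44 (4.493 CPM), and Nupr1 was low in the het TA library of BO58 (6.797 CPM).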

How the results depend on the processing

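All 10 members stayed called between Paneth and stem libraries, and 9 or 10 between Paneth and TA libraries, under every alternative run, and 0 were called between genotypes or as interactions. Of the values tallied under the alternatives 726 kept direction and side of the threshold, 27 turned sign, 18 lost a call and 5 gained one. The tally held all 10 members between fractions and between genotypes in Paneth libraries. Between genotypes it held only Lyz1, Mptx1 and Nupr1 in stem and Lyz1, Itln1, Mptx1 and Pla2g2a in TA libraries, and for interactions Mptx1. Other members turned sign too: in stem libraries 10 of 10 were positive without BN45, against 7 in the main fit. Called members between stem and TA libraries were 3 in het and 1 in hom; with the animal as replicate block they were 1 and 1, and without 1 mouse 0 to 1 and 0 to 0. In hom mice they were 3 by DESeq2, 0 with library totals, 2 without a filter and 2 at a mean of 5 CPM. All genes called there were 1013 in het and 736 in hom mice, and 249 to 801 and 184 to 417 without 1 mouse. With the block they were 1848 and 1427, and by DESeq2 2231 and 1945. The block turned the hom stem to TA values of Lyz1 (0.64) and Clps (-0.011). With library totals the Paneth genotype values of Lyz1 (-0.023), Mmp7 (-0.15) and Habp2 (-0.027) turned sign, and r with Lyz1 was 0.43 for Ang4, 0.46 for Pla2g2a, 0.829 for Itln1, 0.801 for Habp2, 0.576 for Clps and 0.479 for Nupr1. Leaving out 1 mouse, log2 genotype values ran from -0.34 to 0.34 (Lyz1) and -0.017 to 2.57 (Mptx1) in stem libraries. In TA libraries they ran from -0.18 to 1.44 (Lyz1), -0.82 to 0.58 (Itln1) and -0.044 to 2.96 (Pla2g2a), and in Paneth libraries from -0.30 to 0.63 (Lyz1), -0.46 to 0.47 (Mmp7), -0.039 to 0.66 (Itln1) and -0.21 to 0.48 (Habp2). Between stem and TA libraries they ran from -0.10 to 1.41 (Pla2g2a) in het, and from -0.68 to 1.40 (Lyz1), -2.02 to 0.67 (Pla2g2a), -1.22 to 0.70 (Itln1), -1.58 to 0.23 (Habp2) and -0.11 to 0.26 (Clps) in hom mice. The cause was not tested. With 4 mice a group, the width of the intervals limits what can be seen.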

Other observations

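Of all counts of the 10 members in a Paneth library, Nupr1 held 0.359% to 0.377% in the 4 hom libraries and 0.084% to 0.334% in the 4 het libraries, a difference noticed after the values were seen and not tested. Clps held 1.49% to 2.28% in hom and 0.525% to 1.71% in het Paneth libraries, which overlapped. Lyz1 held 42.9% ± 4.06 (SD, n = 4) in hom and 45.6% ± 9.95 in het Paneth libraries.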
